A study of Homo sapiens with 20 samples.

Results

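The regions described are BCOR-binding sites that lie between genes and that the authors list as shared by hormone-treated and vehicle-treated cells. A shared peak was taken when its centre lay over 1000 bp from every transcription start site (TSS) in the deposited transcript table and inside no transcript. This held for 2605 of the 8587 shared peaks (30.3%), out of 11909 BCOR peaks in all 3 deposited lists. The other shared peaks had their centre inside a gene (2919 peaks) or at a promoter (3063 peaks). No RNA value entered this choice. The peaks are called intergenic shared peaks in what follows, and the gene with the TSS closest to a peak's centre is called its nearest gene. Distances are to the closest TSS of any transcript of that gene, whereas gene coordinates are those of its transcript with the most reads, so a distance need not start at the printed end of a gene.

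HEK293-GR is an established cell line of human embryonic kidney origin in which the glucocorticoid receptor (GR) is constitutively expressed. For chromatin, cells kept in steroid-depleted medium received dexamethasone (dex, a synthetic glucocorticoid) at 100 nM or its ethanol vehicle for 1 h, and BCOR was precipitated from 2 libraries per treatment. For RNA, pooled small interfering RNAs directed at BCOR (siBCOR) or a non-targeting pool (siNON) were transfected at 20 nM for 72 h, and dex at 100 nM or vehicle was then given for 6 h. The 4 RNA groups were therefore siNON with vehicle or with dex and siBCOR with vehicle or with dex, with 4 libraries of poly(A)-selected RNA each. All groups carry the added receptor and were grown without steroids, and the sources do not say whether the line is 1 clone. The labels give no siRNA for the chromatin samples, and binding after depletion was not analysed here.

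BCOR is a corepressor that can be recruited by sequence-specific factors such as BCL6, and it is a core subunit of a variant Polycomb complex, PRC1.1, which places ubiquitin on histone H2A. Another subunit of that complex, KDM2B, binds unmethylated CG dinucleotides, and PRC1.1 is best known at CG-rich promoters of developmental regulators. Ligand-bound GR acts mainly from enhancers far from promoters, where it activates some genes and represses others. Sites between genes are therefore of interest as candidate distal elements, although a nearest gene need not be a regulated gene.

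The hg19 genome in which the peaks were placed was not used here, so peak sequences are not shown. RefSeq sequences stand for nearest genes in their place, with coordinates in GRCh38.p14. Promoters (250 bases before to 50 after the TSS) are shown for HES1 (chr3:194135898-194136197, plus strand), ID4 (chr6:19837120-19837419, plus strand) and DUSP1 (chr5:172771146-172771445, minus strand), because their RNA results are described in full below. Capitals mark CG dinucleotides, the feature that KDM2B recognises.
HES1: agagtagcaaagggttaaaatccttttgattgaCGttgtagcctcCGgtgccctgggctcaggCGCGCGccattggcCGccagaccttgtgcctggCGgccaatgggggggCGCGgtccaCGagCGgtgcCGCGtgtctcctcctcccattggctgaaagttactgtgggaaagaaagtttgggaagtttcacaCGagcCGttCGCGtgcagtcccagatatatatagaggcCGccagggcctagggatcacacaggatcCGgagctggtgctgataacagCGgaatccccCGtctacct
ID4: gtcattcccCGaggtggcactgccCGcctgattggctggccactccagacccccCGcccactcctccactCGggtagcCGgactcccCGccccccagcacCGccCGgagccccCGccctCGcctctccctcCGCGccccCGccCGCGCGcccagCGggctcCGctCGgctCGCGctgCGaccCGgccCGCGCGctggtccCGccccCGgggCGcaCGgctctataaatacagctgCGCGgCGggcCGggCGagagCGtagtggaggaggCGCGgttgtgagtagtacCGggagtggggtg
DUSP1: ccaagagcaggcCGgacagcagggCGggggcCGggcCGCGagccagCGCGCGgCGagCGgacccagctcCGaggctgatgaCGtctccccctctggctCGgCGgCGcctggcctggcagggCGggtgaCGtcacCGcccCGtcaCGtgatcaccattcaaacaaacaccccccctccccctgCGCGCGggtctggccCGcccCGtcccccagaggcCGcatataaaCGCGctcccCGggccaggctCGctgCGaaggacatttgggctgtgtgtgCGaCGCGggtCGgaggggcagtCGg
These 3 promoters held 21, 39 and 36 CG dinucleotides. Of all 35093 RefSeq promoters of the same length, 39.5%, 8.71% and 12.7% held at least as many, and the median was 14. A BCOR peak lay within 1 kb of the TSS of ID4 but not of HES1 or DUSP1. The counts describe these letters and say nothing of BCOR's presence there.

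Nearest genes with a plain microRNA symbol (MIR followed by a number) came to 90, and 83 of them were found by symbol in the RefSeq table. Symbols of other forms, such as those of the let-7 genes, are not in this count. Together these 90 genes were nearest to 126 intergenic shared peaks. Capitals mark the seed (bases 2 to 8), which pairs with target RNAs. Among them are MIR148A, nearest to 4 peaks with the closest at 55.8 kb, and MIR152, nearest to 2 peaks with the closest at 12.7 kb, whose 3p arms share a seed.
hsa-miR-148a-3p: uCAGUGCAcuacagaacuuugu
hsa-miR-152-3p: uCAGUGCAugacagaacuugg
Outside that count, the let-7 genes MIRLET7B (1 peak at 9.27 kb) and MIRLET7I (1 peak at 28.4 kb) also share the seed of their 5p arms.
hsa-let-7b-5p: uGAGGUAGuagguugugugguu
hsa-let-7i-5p: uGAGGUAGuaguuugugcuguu
Poly(A) libraries do not measure mature microRNAs, so no level is given for them.

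Intergenic shared peaks lay at a median of 28.2 kb from the nearest TSS (95% order-statistic interval over peaks 26.5 to 30.2 kb), with quartiles of 10.4 and 72.1 kb. Within 10 kb of a TSS lay 24.2% of them, within 50 kb 65.8% and within 100 kb 82.0%. Peaks more than 500 kb away were rare (0.461%). Dex-enriched peaks between genes, which the authors list apart, were farther out, at a median of 37.5 kb with 17.2% within 10 kb. Of the intergenic shared peaks 61.9% were upstream of the TSS nearest to them. The share was 65.1% for dex-enriched and 65.4% for vehicle-enriched peaks between genes, and 24.0% for shared peaks inside genes. The rule leaves out transcripts, which run downstream from a TSS, so this share cannot be read as a preference of BCOR. Peak lists have no value per library, so these distances carry no replicate error.

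**Figure D1:**
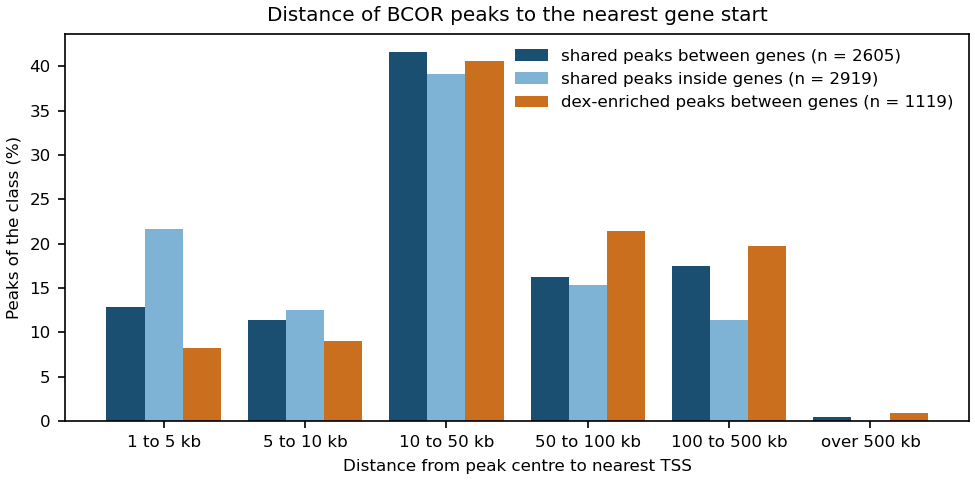
Share of peaks (y axis, percent of the class) by distance from peak centre to nearest TSS (x axis, kb) for intergenic shared peaks, shared peaks inside genes and dex-enriched peaks between genes. The bin from 10 to 50 kb holds 41.6% of the intergenic shared peaks, and the bin from 1 to 5 kb holds 12.9% of them against 8.22% of the dex-enriched ones.

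The 3 peaks just past the limit of the rule were next to PPP1R9B (1005 bp), RIOX2 (1008.5 bp) and DNAJC22 (1011.5 bp), and the 3 just short of it, outside genes, were next to VASP (1000 bp), ACTN2 and INF2 (992 bp each). The most remote intergenic shared peak (hg19 chr5:91977053-91977409) lay 929.8 kb from NR2F1-AS1, in a gene desert beside the nuclear receptor gene NR2F1. The next were at TBX3 (chr12:115800954-115801272, 679.1 kb) and at PCAT5 (chr10:36712773-36713108, 645.7 kb).

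Most intergenic shared peaks stood alone. With centres at most 10 kb apart counted together, 180 clusters held 384 peaks (14.7%), of which 163 clusters had 2 peaks, 10 had 3 and 7 had 4. Among dex-enriched peaks between genes 7.86% were in clusters, in a list with fewer peaks. The 7 clusters of 4 intergenic shared peaks are all given, since they tie in number. The widest spanned 22.7 kb upstream of the semaphorin gene SEMA6B (chr19:4576729-4599781), with its peaks 17.1 to 39.8 kb from the TSS. Another spanned 21.5 kb between ANKRD9 and MIR4309 (chr14:102983024-103004857). Those at the noncoding genes LINC01778 (chr1:31307289-31329100) and LINC02111 (chr5:17306038-17327248) spanned 21.5 and 20.9 kb. The remaining groups of 4 lay at FAM222A (chr12:110134080-110151164), at NRTN, the gene of the growth factor neurturin (chr19:5813817-5830076), and at ACOT11 (chr1:54954907-54968198), and spanned 16.6, 15.9 and 13.0 kb.

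Of the intergenic shared peaks 130 (4.99%) had a dex-enriched peak within 10 kb, and 558 (21.4%) had one within 50 kb. For shared peaks inside genes these shares were 6.61% and 25.7%. Most peaks had 1 of 2 widths: 620 of the intergenic shared peaks were 319 bp wide, the width of 265 of the 267 vehicle-enriched peaks, and 1169 were 335 bp wide, the width of 2997 of the 3055 dex-enriched peaks. The sources used here do not say what width means or by which rule peaks were assigned to a class. Nearest genes of peaks of either width, or of another width, were lower with dex in siNON cells at similar shares (20.4%, 20.7% and 19.9%).

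The 2605 peaks had 2004 nearest genes, 7.18% of the 27896 symbols in the count table. Of these 1604 had 1 peak, 400 had 2 or more and 47 had 4 or more. Protein-coding genes made up 70.9% and noncoding RNA genes 26.5%, with 242 long intergenic noncoding (LINC) symbols among the latter. Some genes are shared with other classes of peak: 318 were also nearest to a shared promoter peak (15.9% of the 2004, 10.9% of the 2923 genes of that class), and 308 to a dex-enriched peak between genes (15.4%, and 32.7% of the 942 of that class).

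FGFR2, a fibroblast growth factor receptor (hg19 chr10:123237844-123357972), had the most peaks, 9, of which 3 lay upstream at 10.4, 95.9 and 102.1 kb from the closest FGFR2 TSS. The other 6 lay past the 3' end of the gene, 136.8 to 268.4 kb from the closest FGFR2 TSS, which there is that of another transcript. LINC01605 also had 9, from 26.6 to 330.0 kb. The T-box gene TBX3, a regulator of limb and organ patterning, had 7, from 15.6 to 679.1 kb on both sides. MICALL2, LINC01389, LINC01781, LINC02111 and UBE2E2-AS1 had 6 each. Of these 5, only MICALL2 had enough reads to be tested.

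**Figure D2:**
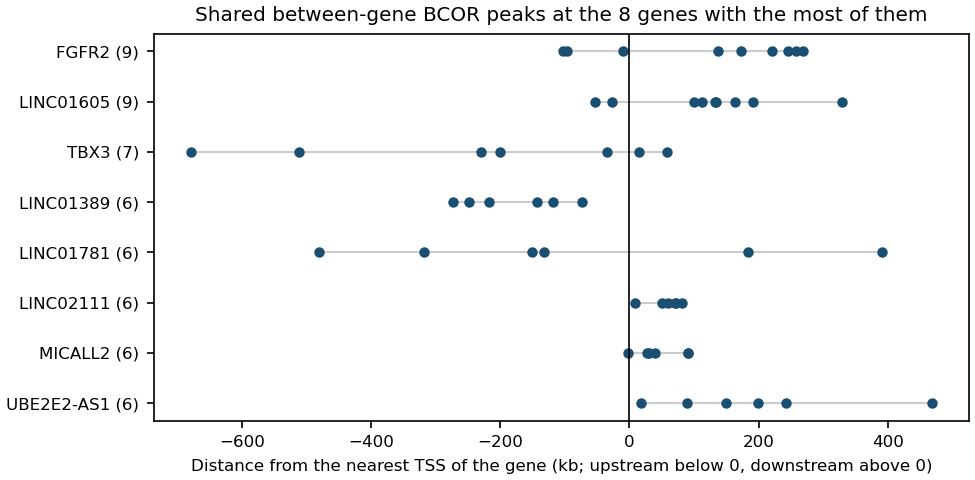
Distance of each intergenic shared peak (points) from the closest TSS of its nearest gene (x axis, kb, upstream below 0) for the 8 genes with the most such peaks (y axis, number of peaks in brackets). The 6 peaks of LINC02111 and of UBE2E2-AS1 all lie downstream, those of LINC01389 all upstream, and TBX3 has peaks on both sides, 679.1 kb upstream to 58.7 kb downstream.

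RNA counts over the transcripts used came to 18580291 to 28054809 per library. The line's own genes were present: NEFL at 33.4 to 57.7, VIM at 145.0 to 276.0 and KRT8 at 144.0 to 284.0 RPKM (counts per kb of transcript, scaled to library size), while PAX2 and LHX1 were low, at most 1.28 RPKM. Of 12 markers of immune cells, fibroblasts and endothelium, COL1A1 alone passed 1 RPKM (3.84 to 7.5), and PTPRC, CD3E, COL1A2, DCN and CDH5 were at or near 0. After removing group means, siNON vehicle replicate 3 and siNON dex replicate 4 stood at 30.2 and 30.8 on the main axis of remaining variation (39.1% of it), siBCOR vehicle replicate 2 at -27.3 and the other 13 between -17.3 and 15.8. Counts are therefore also given without the first 2 of these libraries where they differ by over 1.5 times. The library siBCOR vehicle replicate 2, about as far out on the other side, was left out only by itself. BCOR, the depleted gene, stood at 196.1 ± 29.4 CPM (counts scaled to library size, SD, n = 4) in siNON vehicle, 93.8 ± 15.9 in siNON dex, 22.4 ± 0.795 in siBCOR vehicle and 14.8 ± 0.706 in siBCOR dex.

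Nearest genes of intergenic shared peaks were expressed at modest levels. Their median was 1.18, 1.11, 1.16 and 1.11 RPKM in siNON cells with vehicle and with dex and in siBCOR cells with vehicle and with dex, and library medians within a group spanned at most 1.11 to 1.23 (siBCOR vehicle). About as many genes stood at or above 1 RPKM in each group (51.2%, 50.8%, 51.0% and 51.2%). Over all symbols of the table the medians were 0.769 to 0.811 RPKM. Genes nearest to the other peaks between genes stood at similar levels, 1.35 to 1.49 RPKM for dex-enriched and 1.14 to 1.67 for vehicle-enriched peaks. Genes nearest to shared promoter peaks were several-fold higher (7.09 to 7.42 RPKM), and those nearest to shared peaks inside genes were between (2.03 to 2.28). No reads at all were found for 216 of the 2004 genes. Of the 2004, 1267 (63.2%) had enough reads for testing, and they are the nearest genes of 1602 of the peaks, while 1003 peaks have an untested nearest gene. Since removing genes with few reads keeps genes that are high in any 1 group, counts below are over these 1267 genes only.

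The first question was what dex does to these genes in cells with BCOR. In siNON cells 247 of the 1267 nearest genes fell (19.5%), against 8.59% of all 16432 genes tested, and 156 rose (12.3%), against 10.6%. A gene is called here when its adjusted p is under 0.05 in edgeR's quasi-likelihood test, two-sided and adjusted over all 16432 genes. In either direction 31.8% were called, against 19.2%. The median log2 fold change was -0.07, against -0.0044 over all genes tested. At least a 2-fold fall was seen among called genes in 59 of the 1267 nearest genes and 226 of all 16432 genes. At least a 2-fold rise was seen in 42 of the 1267 and 394 of the 16432. Bulk RNA cannot tell fewer expressing cells from less RNA per cell. The same question in siBCOR cells gave 311 lower (24.5%, against 12.6%) and 150 higher (11.8%, against 10.4%). In either direction this was 36.4%, against 23.0%. The 2 hormone comparisons share no libraries. They do share the filter, the scaling and the estimate of spread, made over all 16 libraries, so their calls are not independent. Without siNON vehicle replicate 3 and siNON dex replicate 4, 231 nearest genes were higher in siBCOR cells (18.1%), which is below the share of all genes in that setting (18.7%). In both comparisons 191 nearest genes were lower, 115 were higher, and none were called in opposite directions. Over all 16432 genes 922 were lower in both, 980 higher in both and 2 opposite.

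Other classes of BCOR peak were set beside these. In siNON cells nearest genes of shared peaks inside genes were lower in 16.4% and higher in 14.2%, and those of shared promoter peaks were lower in 12.5% and higher in 12.4%. Of the 30 tested genes nearest to vehicle-enriched peaks between genes 7 were lower (23.3%) and 2 higher (6.67%), the same lean as for intergenic shared peaks. For dex-enriched peaks between genes the balance was the other way, with 27.7% higher and 13.4% lower. In siBCOR cells the genes of shared peaks inside genes (22.2% lower, 12.03% higher) and at promoters (18.3% and 11.0%) also leaned lower. The classes share part of their genes, and these differences between classes were not tested.

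The 2 directions went with different surroundings. Among the 283 tested nearest genes with a dex-enriched BCOR peak within 50 kb of their TSS, 26.5% were higher and 17.0% lower with dex in siNON cells. Among the 984 without one, 8.23% were higher and 20.2% lower. Over all tested genes with such a dex-enriched peak the shares were 25.02% higher and 8.07% lower. Nearest genes with a BCOR peak within 1 kb of their own TSS (321 tested) were lower in 25.2%, against 17.6% of the 946 without one. With 2 or more intergenic shared peaks 27.4% of 234 genes were lower, and with 1 peak 17.7% of 1033. By distance of the closest peak, the share lower in siNON cells was 18.8% at 1 to 5 kb, 16.4% at 5 to 10 kb, 15.8% at 10 to 50 kb, 32.9% at 50 to 100 kb and 23.1% at 100 to 500 kb. In siBCOR cells these shares varied less, at 24.1%, 22.0%, 23.4%, 30.5% and 25.9% in the same order. There 28.2% of genes with 2 or more peaks were lower with dex, and 23.7% of those with 1 peak. Differences between these subsets were not tested.

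**Figure D3:**
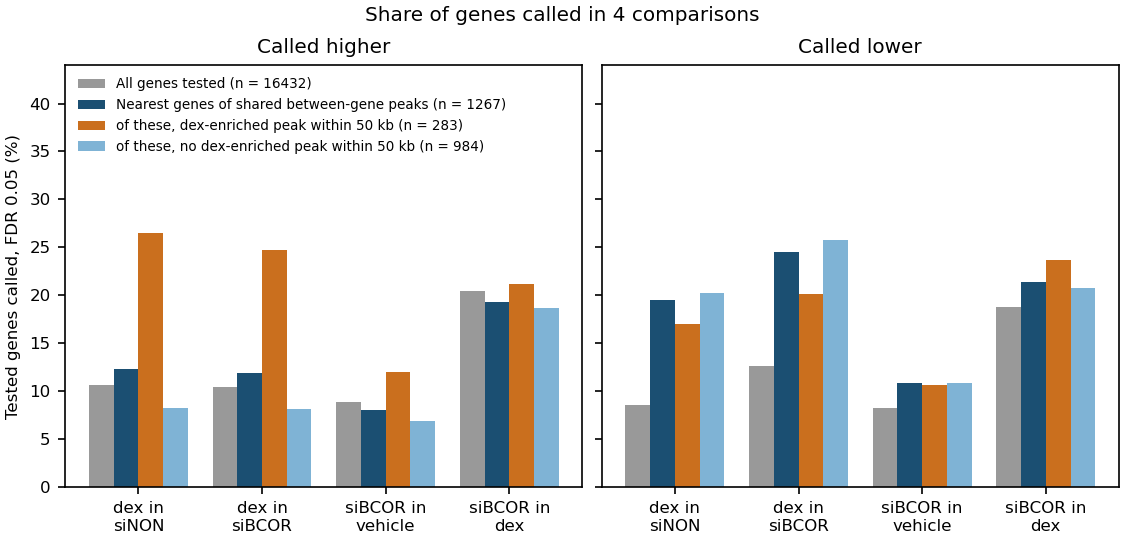
Share of tested genes called higher (left) and lower (right; y axis, percent) in 4 comparisons (x axis) for all genes tested, nearest genes of intergenic shared peaks, and the latter with and without a dex-enriched BCOR peak within 50 kb of the TSS. With dex in siNON cells the nearest genes stand at 19.5% lower against 8.59% of all genes, and those with a dex-enriched peak at 26.5% higher.

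Genes with much intergenic sequence around them can be nearest to many peaks, so the shares were also set out by territory, the length of sequence outside genes and over 1 kb from any TSS to which a gene has the nearest TSS. Median territory was 53.5 kb for nearest genes and 9.03 kb for the other tested genes. The share lower with dex in siNON cells was 16.04% against 5.78% for territories up to 10 kb, 12.6% against 7.69% from 10 to 50 kb, 22.8% against 13.5% from 50 to 200 kb, and 33.3% against 20.6% beyond 200 kb, nearest genes first. The median of the genes' mean counts was 513.8 for nearest genes and 510.9 for the others. At mean counts under 100 the shares lower were 14.9% and 5.93%, at 100 to 1000 they were 27.1% and 10.4%, and above 1000 they were 13.6% and 5.62%. In both kinds of gene the share that fell was highest beyond 200 kb, and it was higher for nearest genes in each band of territory and of count. These bands were added after the results were seen and carry no test.

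**Figure D4:**
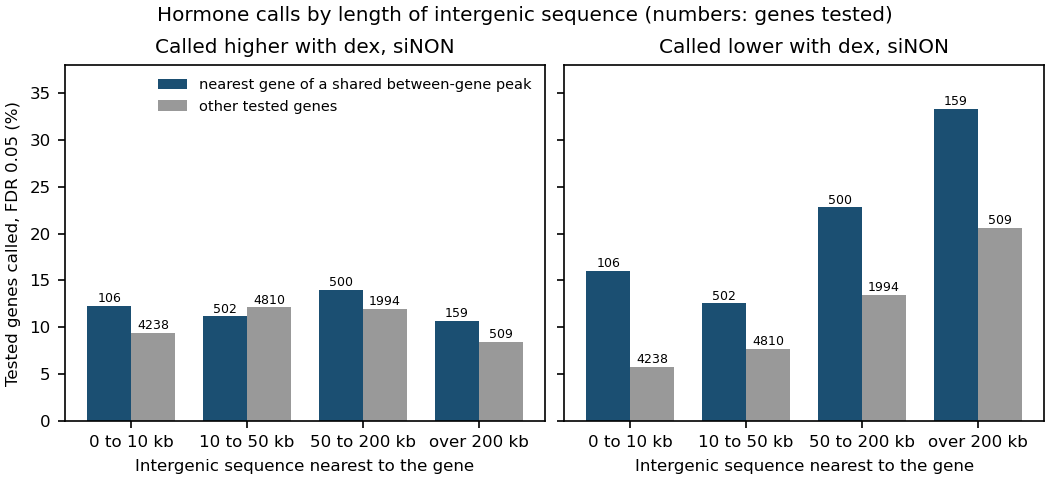
Share of tested genes called higher (left) and lower (right; y axis, percent) with dex in siNON cells by territory (x axis), for nearest genes of intergenic shared peaks and for other tested genes, with the number tested above each bar. In the panel of lower genes the nearest genes stand above the others in all 4 bands, 33.3% against 20.6% beyond 200 kb; 3614 other tested genes have no territory and are not drawn.

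Of 44 growth-control genes in the table, 11 were nearest genes, with 23 peaks between them; 9 of the 11 were lower with dex in siNON cells and none was higher, with a median log2 fold change of -1.09. Of the list's 43 tested genes 16 were lower and 5 higher, with a median of -0.12, and of all genes tested 8.59% were lower. The 9 nearest genes were ID4, HES1, IGFBP5, ID3, FGFR2, PDGFB, CCND2, CDKN2B and FGFR3. ERBB3 (log2 fold change -0.13) and SPRY2 (0.03) were not called. This list and the others used below were chosen with earlier results of these data known. Their shares therefore describe the listed genes and cannot serve as support for a lean of nearest genes.

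ID4, an inhibitor of basic helix-loop-helix factors (chr6:19837601-19842431), has 2 peaks, the closer (chr6:19851902-19852220) 14.5 kb downstream of its TSS. Its level was 88.5, 81.3, 97.0 and 93.5 CPM in siNON vehicle and 14.1, 16.3, 11.6 and 17.4 in siNON dex. In siBCOR cells it was 99.1, 95.2, 103.7 and 113.7 CPM in vehicle and 22.4, 21.2, 19.7 and 17.3 in dex. The dex libraries lie far below the vehicle libraries in both kinds of cell, and siBCOR dex overlaps siNON dex slightly. The fall was 6.09-fold in siNON cells (log2 fold change -2.61 ± 0.114 SE, edgeR adjusted p = 1.01e-11) and 5.10-fold in siBCOR cells (-2.35 ± 0.112).

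HES1, a transcriptional repressor and Notch target (chr3:193853931-193856401), has 1 peak (chr3:193858434-193858899) 4.74 kb downstream of its TSS. It went from 65.9, 62.9, 51.0 and 63.6 CPM in siNON vehicle to 14.6, 15.6, 13.9 and 11.7 in siNON dex. In siBCOR cells it went from 57.7, 71.8, 58.9 and 67.7 to 16.6, 17.0, 17.3 and 13.9 CPM. Vehicle and dex libraries do not overlap, while siNON and siBCOR libraries of the same treatment do. HES1 fell 4.36-fold in siNON cells (-2.12 ± 0.110, edgeR adjusted p = 9.89e-11) and 3.95-fold in siBCOR cells.

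IGFBP5, which binds insulin-like growth factors, has a peak 4.62 kb upstream (chr2:217564731-217565049) and fell from 95.7 ± 9.85 to 28.7 ± 3.64 CPM (SD, n = 4; -1.73 ± 0.0904, edgeR adjusted p = 1.08e-10). FGFR2, with its 9 peaks, stood at 65.3, 64.0, 55.9 and 56.8 CPM in siNON vehicle and 29.1, 29.8, 28.2 and 24.4 in siNON dex, a 2.17-fold fall without overlap (-1.12 ± 0.0770, edgeR adjusted p = 5.22e-09). Among the other genes with the most peaks, TBX3 did not change with dex in siNON cells past the threshold (0.01 ± 0.0858, adjusted p = 0.963 by edgeR). Neither did LINC01605 (0.02 ± 0.177) or MICALL2 (0.08 ± 0.213). Of the 4 tested genes with the most peaks, FGFR2 alone was called.

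Of 147 developmental transcription factors in the table, 32 were nearest genes with 47 peaks, and 24 were tested. In siNON cells 15 of the 24 were lower with dex and 1 was higher, with a median log2 fold change of -0.46; over the list's 123 tested genes 72 were lower, 7 higher, and the median was -0.53. The orphan nuclear receptor gene NR2F1 (peak 15.03 kb downstream, chr5:92933906-92934240) stood at 44.9, 40.7, 36.5 and 38.8 CPM in siNON vehicle and 14.7, 12.7, 13.6 and 10.5 in siNON dex. It fell 3.11-fold (-1.64 ± 0.103, edgeR adjusted p = 1.48e-09), and its relative NR2F2, 272.6 kb from its peak, fell 1.92-fold. Others that were lower include HOXD11 (-1.08), SIM1 (-0.89), GATA3 (-0.76), FOXA1 (-0.72), HOXD3 (-0.60), SIM2 (-0.58), LMX1B (-0.55), LHX2 (-0.52), GATA4 (-0.41), TBX18 (-0.38) and OSR1 (-0.36), as log2 fold changes. MSX2, a homeobox gene with 2 peaks and a dex-enriched peak nearby, was the one that rose (1.08 ± 0.0989). PAX2, TBX3, TBX15, SIX3, SIX6, NKX2-2, NKX6-2 and OLIG2 were not called. In siBCOR cells 13 were lower and 1 higher.

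Of 65 adhesion and migration genes in the table, 12 were nearest genes with 15 peaks, and of the 11 tested 5 were lower and 1 was higher with dex in siNON cells. Over the whole list 24 of 61 tested genes were lower and 8 higher. ADAMTS1, a matrix protease gene whose peak lies 129.3 kb away, fell from 637.0 ± 60.3 to 69.9 ± 3.65 CPM (SD, n = 4; 9.11-fold). CDH7 (-2.34), the guidance receptor gene NRP1 (-1.29), SLIT2 (-0.84) and SEMA6A (-0.69) were lower as log2 fold changes, and the GTPase gene RHOU was higher (1.04). ITGB1, PLXND1, EPHA7, CDC42EP3 and LAMB1 were not called.

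Other nearest genes with large falls in siNON cells, each with a peak within 100 kb, were IRS4, FOXB1, FOXCUT, INSM1, EBF2 and BAHCC1. IRS4, an insulin receptor substrate gene abundant in this line (chrX:107975727-107979607, peak 15.8 kb downstream), went from 550.6, 572.8, 551.9 and 437.3 to 139.2, 137.5, 145.3 and 130.7 CPM, and in siBCOR cells from 551.0, 574.4, 529.5 and 561.3 to 196.0, 205.4, 210.6 and 197.9. All dex libraries lie below all vehicle libraries, which the rule for naming IRS4 required within each kind of cell. The siBCOR dex libraries lie above the siNON dex ones without overlap. The interaction was not called (0.48 ± 0.0992, adjusted p = 0.0988 by edgeR). The fall was 3.82-fold in siNON cells (-1.93 ± 0.0725, edgeR adjusted p = 1.27e-12). The forkhead gene FOXB1 has 4 peaks and fell 3.54-fold, from 7.42 ± 0.922 to 2.08 ± 0.390 CPM (SD, n = 4). FOXCUT (-1.70), the endocrine and neuronal factor gene INSM1 (-1.55), EBF2 (-1.47) and BAHCC1 (-1.36) followed. In siBCOR cells TFAP2A (-1.38), the apoptosis gene BMF (-1.46) and the secreted-hormone gene STC2 (-1.22) were among the largest falls. The hormone's own receptor gene NR3C1, 107.3 kb from its peak, was lower in siNON cells (-0.50), though its reads may include the added receptor.

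Some nearest genes rose many-fold. PDK4, a kinase that limits glucose oxidation (chr7:95212809-95225925), has a peak 51.6 kb downstream of its TSS (chr7:95174163-95174497). It rose from 5.14, 7.16, 6.73 and 5.60 to 242.0, 248.8, 217.9 and 281.4 CPM in siNON cells, and from 6.67, 5.55, 6.63 and 7.05 to 409.9, 340.0, 388.3 and 357.1 in siBCOR cells. Dex and vehicle libraries are far apart, and siBCOR dex lies wholly above siNON dex. The rise was 40.3-fold in siNON and 57.7-fold in siBCOR cells, and the difference between the responses was not called (interaction 0.52 ± 0.152, adjusted p = 0.196 by edgeR).

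DUSP1, a phosphatase gene that dampens MAP kinases (chr5:172195093-172198203), has 2 peaks, the closer only 1.28 kb upstream (chr5:172199209-172199764). It stood at 34.9, 31.4, 29.6 and 30.1 CPM in siNON vehicle and 81.3, 94.2, 73.5 and 83.3 in siNON dex. In siBCOR cells it stood at 30.8, 29.8, 27.3 and 27.1 in vehicle and 92.3, 87.8, 92.9 and 87.4 in dex. The dex libraries are all above the vehicle libraries, by 2.64-fold in siNON (1.40 ± 0.0780, edgeR adjusted p = 2.89e-10) and 3.13-fold in siBCOR cells. DUSP1 and PDK4 are among the 5 nearest genes found in a list of 39 glucocorticoid-induced genes in the table. PIK3R1 rose too (0.63, adjusted p = 0.0135 by edgeR), with overlapping libraries in siNON cells, while KLF9 (0.20) and DDIT4 (0.42) were not called. The list as a whole had 26 of 34 tested genes higher.

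CNKSR3, a scaffold gene with 3 peaks (closest 37.7 kb upstream, chr6:154869343-154869677), rose from 32.7, 30.9, 26.2 and 28.1 to 224.9, 234.2, 214.4 and 197.2 CPM in siNON cells, 7.39-fold. SLC2A3, a glucose transporter gene (peak 24.5 kb upstream, chr12:8113263-8113597), rose from 25.7, 24.2, 22.0 and 24.9 to 270.4, 266.7, 271.9 and 253.2 CPM, 11.0-fold (3.46 ± 0.0790, edgeR adjusted p = 2.82e-15). The ligand gene WNT16 (peak 11.1 kb upstream, chr7:120954070-120954605) rose from 4.14, 5.71, 4.82 and 5.06 to 52.2, 54.3, 47.2 and 54.3 CPM, 10.6-fold. In these 3 genes no dex library overlaps a vehicle library, which the rule for naming them required. A dex-enriched BCOR peak lies within 50 kb of the TSS of each. LINC01554, with a peak 5.12 kb upstream and no dex-enriched peak that close, rose 14.3-fold, from 1.60 ± 0.258 to 23.0 ± 1.00 CPM (SD, n = 4). LOC101929705 (3.89) and C6orf223 (3.96) overlap on opposite strands of chromosome 6, and their reads may not be told apart. LINC01647 (3.26), the ubiquitin ligase gene UBE2QL1 (2.61), PPP1R1B (2.47) and, in siBCOR cells, the inhibitor of apoptosis gene BIRC3 (3.08) also rose, as log2 fold changes.

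**Figure D5:**
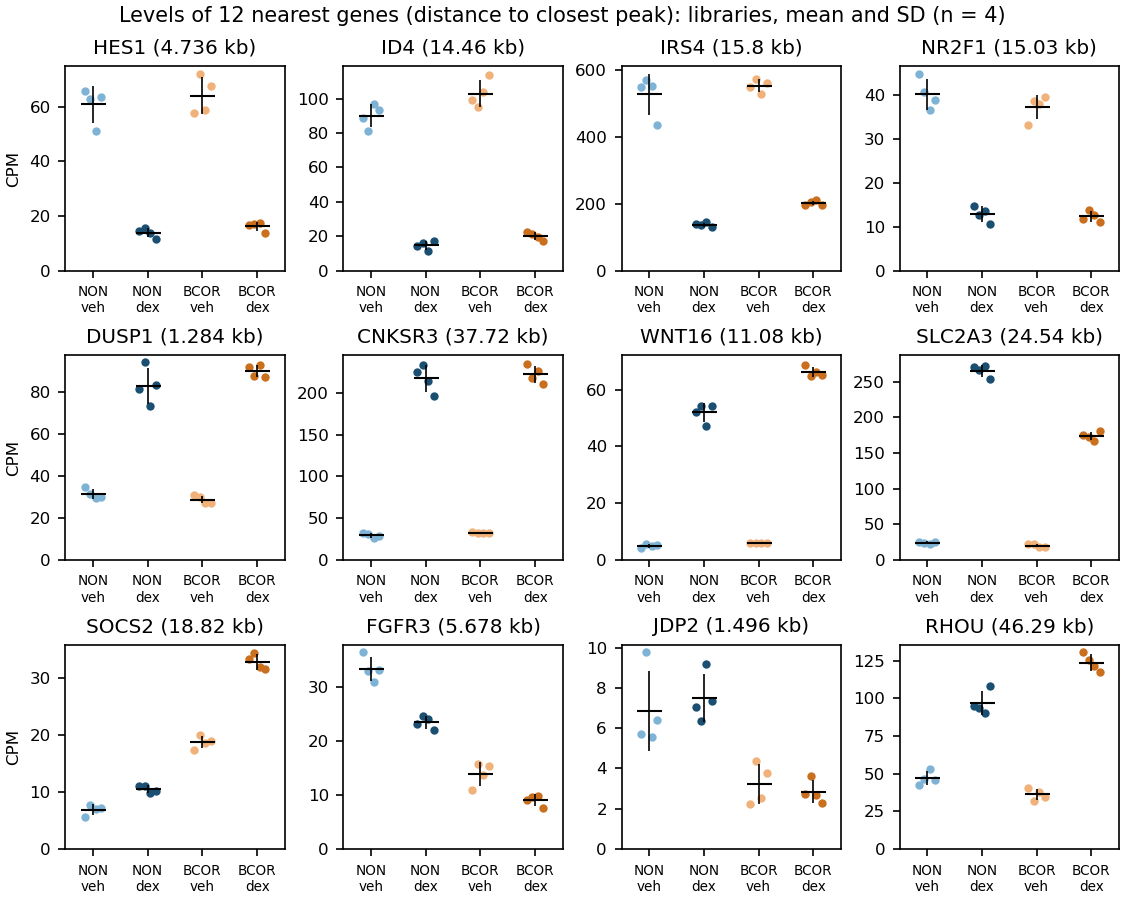
Levels (y axis, CPM) of 12 nearest genes in the 4 RNA groups (x axis; NON and BCOR name the siRNA, veh and dex the treatment), with points for libraries, and horizontal and vertical lines for mean and SD (n = 4). Titles give the distance from TSS to the closest intergenic shared peak. The top row falls with dex, the middle row rises, and in the bottom row SOCS2 is higher, FGFR3 and JDP2 lower in both siBCOR groups.

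The second question was what depletion of BCOR does to these genes. In vehicle 102 of the 1267 nearest genes were higher in siBCOR than in siNON cells (8.05%, against 8.82% of all genes tested) and 137 lower (10.8%, against 8.19%), or 18.9% in either direction, against 17.0%. In dex 244 were higher (19.3%, against 20.4%) and 271 lower (21.4%, against 18.7%), or 40.6% in either direction, against 39.2%. These shares are near those of all genes. The share lower was above that of all genes in all 29 settings tried in both treatments. These settings draw on the same libraries, so they are not independent of each other. The margin was smaller than with dex in siNON cells in the main analysis, and the difference was not tested. The depletion comparisons share libraries with the hormone comparisons, so no overlap between them is given. The counts depend on siNON libraries: without siNON vehicle replicate 3 and siNON dex replicate 4, 248 nearest genes were lower in vehicle (19.4%, against 15.1% of all genes in that setting) and 416 in dex (32.5%, against 27.3%). Without siNON vehicle replicate 4, 64 were higher in vehicle (4.98%, against 6.02%), and without siNON vehicle replicate 3, the number lower in vehicle was the largest of the 16 counts with 1 library left out (205, or 15.99% against 12.1%).

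After depletion in dex the shares in each direction varied with distance, beside 20.4% higher and 18.7% lower over all genes tested. Nearest genes with a peak at 1 to 5 kb were higher in 11.2% and lower in 26.8%. Those whose closest peak was at 100 to 500 kb were higher in 28.0% and lower in 14.7%. At 5 to 10, 10 to 50 and 50 to 100 kb, 16.95%, 19.2% and 24.55% were higher. In the same order 23.2%, 22.6% and 13.8% were lower. By territory, nearest genes were higher in 7.55% and lower in 25.5% up to 10 kb, and higher in 27.04% and lower in 14.5% beyond 200 kb. Genes that are no nearest gene had a like order: up to 10 kb 15.3% were higher and 23.0% lower, and beyond 200 kb 29.1% were higher and 10.4% lower. Differences between these subsets after depletion were not tested.

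BCOR itself has 2 peaks, the closer 83.8 kb downstream of its TSS (chrX:39872739-39873170). It stood at 226.8, 210.3, 158.8 and 188.6 CPM in siNON vehicle and 96.8, 102.1, 105.9 and 70.6 in siNON dex, so the siNON dex libraries hold less BCOR RNA than the siNON vehicle ones. Depletion lowered it 8.77-fold in vehicle and 6.36-fold in dex, to 13.8 to 23.5 CPM. Of the 11 PRC1.1 genes 4 were nearest genes (BCOR, RYBP, SKP1 and CSNK2A1), and of these BCOR alone was called with dex in siNON cells. In siBCOR cells BCOR (-0.6) and CSNK2A1 (-0.19) were lower with dex and SKP1 higher (0.19, edgeR adjusted p = 0.0499), as log2 fold changes. SKP1 was also higher after depletion in dex (0.18). With other processing these 2 calls of SKP1 were kept in 9 of 23 and 12 of 23 settings. None of 11 genes of the sister complex PRC2 was a nearest gene.

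SOCS2, a suppressor of cytokine signalling (chr12:93964757-93970521, peak 18.8 kb downstream, chr12:93984966-93985284), rose in both treatments. It stood at 5.53, 7.69, 7.07 and 7.18 CPM in siNON vehicle and 17.4, 20.1, 18.6 and 18.9 in siBCOR vehicle. In dex it stood at 11.1, 11.0, 9.75 and 10.2 in siNON and 33.3, 34.4, 31.8 and 31.5 in siBCOR. No libraries overlap between the siRNAs, which the rule for naming SOCS2 required. The rise was 2.73-fold in vehicle (1.45 ± 0.0916, edgeR adjusted p = 7.90e-08) and 3.12-fold in dex (1.64 ± 0.0881). The tetraspanin gene TSPAN2 (0.92 in vehicle, 1.01 in dex), the Krüppel-like factor gene KLF9 (0.72 and 0.74), ZADH2 (0.56 and 0.62), PIK3CB (0.54 and 0.51) and the nuclear factor gene NFIA (0.53 and 0.53) were higher in both treatments, as log2 fold changes. SESN3 (1.12), ZNF507 (0.90), PRTG (0.88), ZBTB10 (0.84) and RLIM (0.83) were called higher in dex and not in vehicle. The difference between treatments was not called for any of these 5 (edgeR adjusted p of the interaction 0.239 to 0.307). In SESN3, ZNF507 and RLIM siNON vehicle replicate 3 stood above the other 3 libraries of its group. Without it and siNON dex replicate 4 the rises in dex were 1.35, 1.11 and 1.05.

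FGFR3, a growth factor receptor gene (chr4:1795039-1810599, peak 5.68 kb upstream, chr4:1789194-1789528), was lower after depletion. Its libraries stood at 36.4, 32.9, 31.0 and 33.2 CPM in siNON vehicle against 10.9, 15.7, 13.8 and 15.4 in siBCOR vehicle, and at 23.2, 24.7, 24.0 and 22.0 against 9.02, 9.71, 9.86 and 7.51 in dex. The groups do not overlap, with falls of 2.40-fold in vehicle (-1.26 ± 0.107, edgeR adjusted p = 1.30e-06) and 2.60-fold in dex (-1.38 ± 0.110). FGFR3 also fell with dex (-0.51), so both treatments lowered it.

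PEX10, a gene of peroxisome assembly with a peak 1.95 kb upstream (chr1:2345796-2346130), stood at 48.5, 49.2, 46.5 and 47.6 CPM in siNON vehicle and 18.5, 25.9, 22.4 and 24.4 in siBCOR vehicle. It fell 2.10-fold (-1.07 ± 0.0813), and its change with dex was not called (-0.01 ± 0.0792 in siNON cells). The forkhead gene FOXK2 (-0.92 in vehicle, -1.06 in dex), the ligand gene WNT7B (-0.999 and -1.08), the matrix metalloprotease gene MMP17 (-1.39 and -1.23), JDP2, an inhibitor of AP-1 (-1.09 and -1.38), METRNL (-0.998 and -0.70), SFN (-0.79 and -1.18) and HLF (-0.54 and -1.20) were lower in both treatments, as log2 fold changes. PLLP was lower in dex (-1.15). UBE2QL1 rose 6.12-fold with dex in siNON cells and was lower after depletion in both treatments (-0.90 and -1.10).

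The last question was whether depletion changed the response to dex. Of the 1267 nearest genes 1 had a larger rise in siBCOR cells (0.0789%, against 0.0183% of all genes tested) and 2 had a response shifted down (0.158%, against 0.0852%), by edgeR's interaction test, or 0.237% in either direction, against 0.103%. RHOU, with 3 peaks (closest 46.3 kb downstream, chr1:228916889-228917348), went from 42.7, 46.4, 53.2 and 45.7 to 94.9, 93.8, 90.1 and 108.5 CPM in siNON cells and from 40.6, 32.1, 37.8 and 34.2 to 130.8, 125.6, 121.3 and 117.6 in siBCOR cells. Its rise was 2.06-fold and 3.42-fold (interaction 0.73 ± 0.119, adjusted p = 0.0344 by edgeR). SNX33, a sorting nexin gene with a peak 1.33 kb upstream (chr15:75939864-75940182), rose from 17.1, 16.5, 15.2 and 15.7 to 53.4, 54.2, 59.4 and 50.7 CPM in siNON cells and from 19.7, 21.7, 17.8 and 20.1 to 42.0, 45.7, 43.6 and 42.2 in siBCOR cells. Its rise was 3.38-fold and 2.19-fold (interaction -0.63 ± 0.102), so RHOU rose more, and SNX33 less, in cells depleted of BCOR. INSIG1, which restrains cholesterol synthesis, fell from 390.9 ± 9.81 to 237.2 ± 11.7 and from 493.7 ± 15.3 to 228.5 ± 4.63 CPM (SD, n = 4; interaction -0.39), with its peak 81.0 kb upstream.

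These 3 calls depend on the libraries used: with 1 library left out, counts ran from 0 to 92 higher and from 0 to 80 lower, and both largest counts came without siNON dex replicate 4. In that setting the shares of nearest genes, 7.17% higher and 6.24% lower, were below those of all genes, 8.17% and 6.49%. DESeq2 gave an adjusted p for 958 of the nearest genes and called 7 higher (0.731%, against 0.317% of all genes) and 5 lower (0.522%, against 0.464%).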

How the data were processed

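The authors deposited 1 table of raw counts over exons of hg19 RefSeq transcripts, made with HOMER without normalization per the file headers, and 3 lists of BCOR peaks in hg19, dex-enriched, vehicle-enriched and shared. HOMER 4.10.3, Bowtie 0.12.9, TopHat2, Trimmomatic, FastQC and bedtools are named in the submitters' processing notes. In the deposited peak lists the score is 0 for every peak, so it ranks nothing. Each list covers all ChIP libraries together, and the strand setting of the counting is not given in the sources used here, so reads of overlapping genes may not be told apart. The labels give 4 RNA libraries per group, all used, while the design text speaks of 3. Nothing says that they came from separate cultures, so p-values measure the spread between these libraries, which may be technical.

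Peak centres were set against every TSS and transcript of the count table. Each symbol was represented by its transcript with the most reads. Counts were tested with edgeR 4.0.16 (limma 3.58.1, R 4.3.3): TMM scaling, filterByExpr, 4 group means over all 16 libraries, robust quasi-likelihood F tests and Benjamini-Hochberg adjustment over 16432 genes. The fit was tested on simulated data. CPM and RPKM were computed from the counts with the fit's library sizes, and ± after a log2 fold change is its standard error. Transcripts with no gene name held 0.0664% of counts and were left out. Members and lists were chosen with earlier results of these data known.

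Genes named were BCOR, NR3C1, the 8 with the most peaks, up to 10 per direction and comparison with the largest called change (mean of at least 50 counts, no overlap between groups, peak within 100 kb), and up to 4 per list and comparison with the smallest adjusted p. The 6 lists were glucocorticoid-induced genes, developmental transcription factors, PRC1.1, PRC2, growth control, and adhesion and migration. For genes named by the size of their change, lack of overlap between the groups compared was a condition of naming and not a result. Other list members were named after their values were seen, to complete a count. Alternatives were DESeq2 1.42.0, other scaling, no filter, other transcripts, gene assignments and distances, a replicate block and libraries left out. Peak sequences were not analysed here, and some list members are not reported here.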

Additional observations from a re-analysis of the deposited data

Results flagged for a closer look

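Groups of 4 library values were looked at for each named gene and for the median level of the nearest genes. Of these 332 groups, 27 (8.13%) held a library far from its 3 neighbours by Dixon's test at 95%. Chance alone gives about 1 group in 20, but many named genes were selected by their values, so this rate may not hold. Of the 27, 7 were in siNON dex replicate 4, 6 in siNON vehicle replicate 3 and 6 in siBCOR vehicle replicate 2. These libraries are at the ends of the main axis of variation within groups. The genes of 1 library are not independent of each other.

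In siNON vehicle replicate 3, EPHA7 stood at 148.0 CPM against 82.2 to 89.1 in the other 3, RLIM at 156.6 against 90.3 to 99.8, ZNF507 at 106.5 against 56.5 to 64.0, SESN3 at 89.9 against 49.0 to 55.5, TBX18 at 47.5 against 34.3 to 36.0, and INSM1 was low at 6.60 against 8.26 to 8.56. In siNON dex replicate 4, RLIM stood at 127.5 against 65.2 to 74.8, ZNF507 at 83.5 against 43.0 to 49.6 and LINC01004 at 5.89 against 3.15 to 3.54. FOXK2 (163.7), SLIT2 (151.5), MSX2 (25.2) and NRP1 (20.2 CPM) were below the other 3 libraries there. The calls of SESN3, RLIM and ZNF507 in dex keep their direction and significance without these libraries.

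In siBCOR vehicle replicate 2, FOXK2 (114.0), WNT7B (7.62), MMP17 (1.78) and NKX6-2 (0.627 CPM) stood above the other 3, and NR3C1 (1053 CPM) and LINC01554 (0.820 CPM) below. Elsewhere IRS4 stood low in siNON vehicle replicate 4 (437.3 CPM), IGFBP5 low in siBCOR vehicle replicate 3 (100.9), NR2F2 high (129.3) and C6orf223 low (0.325) in siBCOR vehicle replicate 4, C6orf223 high (3.88) and PIK3R1 low (72.4) in siBCOR dex replicate 2, and TSPAN2 high (8.24) in siBCOR dex replicate 4. LINC02111 was at 0.0426 CPM in siNON dex replicate 3 and at 0 in the other 3, from 1 read.

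The response to dex differed between siBCOR and siNON cells by edgeR's interaction test for RHOU (log2 difference 0.73), SNX33 (-0.63) and INSIG1 (-0.39). With other processing these 3 were called in 10 of 22, 6 of 22 and 5 of 22 settings. In none of the 22 did the sign turn. Without siNON vehicle replicate 3 and siNON dex replicate 4 the differences were 0.74, -0.62 and -0.42, all called. Both libraries were picked by their place on the main axis of variation within groups, so these calls are no independent check. In that setting the interaction was called higher in 7.06% and lower in 3.62% of all genes tested, against 0.0183% and 0.0852% in the main analysis.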

How the results depend on the processing

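The share of nearest genes called lower was above that of all genes tested in all 29 settings for both hormone comparisons and both depletion comparisons: 14.4% to 21.3% with dex in siNON cells (all genes 6.26% to 11.8%), 17.6% to 27.3% in siBCOR cells (8.55% to 15.4%), 6.49% to 19.4% after depletion in vehicle (5.03% to 15.1%) and 14.5% to 32.5% in dex (up to 27.3%). The share higher was above it in 29, 28, 4 and 5 of 29. All settings draw on the same libraries and are not independent of each other. With both flanking genes taken per peak, 2194 genes were tested: 269 were higher with dex in siNON cells (12.3%, against 10.6% of all genes), 256 higher and 488 lower in siBCOR cells (11.7% and 22.2%, against 10.4% and 12.6%), 181 and 215 after depletion in vehicle (8.25% and 9.80%, against 8.82% and 8.19%), 421 and 476 in dex (19.2% and 21.7%, against 20.4% and 18.7%), and 4 had a lower interaction. Without siNON vehicle replicate 3 and siNON dex replicate 4, 231 were higher with dex in siBCOR cells. In that setting 248 were lower after depletion in vehicle and 416 lower after depletion in dex. Its interaction had 86 higher (6.72%, against 7.06% of all genes) and 39 lower (3.05%, against 3.62%). The cause was not tested. With only the groups compared, depletion in vehicle gave 57 higher (4.62%, against 4.48% of all genes) and 80 lower (6.49%, against 5.03%). For the interaction DESeq2 called 7 and 5, peaks over 5 kb from a TSS left 1 lower, and with RLE scaling or no filter 0 were lower. Leaving out each library in turn gave 135 to 165 higher and 210 to 273 lower with dex in siNON cells, 130 to 193 and 255 to 333 in siBCOR cells, 64 to 125 and 94 to 205 after depletion in vehicle, 156 to 309 and 202 to 337 in dex, and 0 to 92 and 0 to 80 for the interaction. The 64 came without siNON vehicle replicate 4, the 156 without siNON dex replicate 3, and the 92 and 80 without siNON dex replicate 4. With the replicate block the interaction had 0 higher and 0 lower, and no other count moved by 1.5 times. The numbers do not pair the libraries: same-numbered libraries correlated at -0.526 to 0.502 (24 pairs, 6 over 0.1). The median distance was 46.72 kb to tested genes, 39.28 kb to protein-coding ones and 35.6 kb for peaks over 5 kb out, and 190 or 978 peaks were in clusters with a gap of 5 or 50 kb. Of 128 named changes 116 kept direction and call in every setting, and none reversed. Low counts limit the 737 untested nearest genes. A stricter peak threshold could not be run, since all scores are 0.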
